A study of Mus musculus with 12 samples.

Results

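Matrix metalloproteinases are zinc-dependent proteases that cut collagens and other matrix proteins around cells, and tissue inhibitors of metalloproteinases (the Timp genes) block them. Described here are 10 of these genes, chosen by symbol, among the 55291 symbols counted in each library. They are 7 metalloproteinase genes (Mmp2, Mmp3, Mmp9, Mmp11, Mmp13, Mmp14 and Mmp16) and 3 inhibitor genes (Timp1, Timp2 and Timp3). All 10 passed the filter on low counts. In 8 of the 10, all 3 libraries of every group were above the filter's cut of 0.409 CPM (counts over the library total, ×1e6, without TMM scaling). The exceptions were in marrow AML, where 1 of 3 libraries passed for Mmp16 and 2 of 3 for Mmp3. All other CPM values are counts over the TMM-scaled library total of the genes that passed the filter, ×1e6.

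Low-input RNA libraries had been made from cells isolated, per the labels, as Vecad+ endothelium of VECadCre-tdTomato mice, in which a Cre driven by the VE-cadherin promoter switches on a red fluorescent protein. The 4 groups held 3 libraries each. They were bone marrow (BM) of mice given AML Trp53(R172H/Δ) cells, an acute myeloid leukaemia with mutant p53, marrow of mice given no cells, lung of mice given the AML cells, and lung of mice given no cells. Both control groups carried the same reporter and had no mock transplant that the labels name. The sources used here give no age, sex, time after transplant or conditioning, and nothing says that the 3 libraries of a group came from separate mice, so p-values measure the spread between these libraries.

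Most metalloproteinases are secreted as inactive precursors and are activated by removal of a propeptide, while the membrane-type enzymes stay on the cell surface. In bone marrow they take part in bone turnover, vessel remodelling and the release of blood cells, and in lung in the upkeep of the alveolar wall. Inhibitors bind the active enzymes, and the inhibitor family differs in which proteases it blocks: Timp3 is held in the matrix and also blocks several ADAM and ADAMTS proteases.

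The label of endothelium was set against 20 pan-endothelial genes. Their summed share of counts was 0.0229 to 0.0294% in marrow AML, 0.0202 to 0.0299% in marrow control, 0.0304 to 0.105% in lung AML and 0.259 to 0.918% in lung control. Cdh5, the gene of VE-cadherin, averaged 0.634 ± 0.291 CPM in marrow AML, 4.91 ± 1.51 CPM in marrow control, 15.9 ± 14.4 CPM in lung AML and 188 ± 143 CPM in lung control (SD, n = 3 each). Lung epithelium genes took 21.3 to 23.2% of counts in lung AML and 15.8 to 19.7% in lung control, and 18 marrow stromal and osteolineage genes took 1.53 to 2.87% in marrow AML and 1.49 to 2.15% in marrow control. The libraries thus held endothelial transcripts at low shares beside those of other cells, and the groups are named here by tissue and transplant. Lung control 2 stood apart, with the highest endothelial share (0.918%) and a fibroblast share of 0.289%, against 1.49 and 1.47% in the other lung controls. In mixed RNA, fewer cells of a type and less RNA per cell cannot be told apart. The 95% exact (Clopper-Pearson) intervals of these marker shares reached at most 3.43% of the share to either side, and cover counting error only.

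In marrow, 7 of the 10 genes were higher in AML than in control and 1 was lower. Mmp11, Mmp13, Mmp14, Mmp9 and all 3 inhibitor genes rose, Mmp16 fell, and Mmp2 and Mmp3 did not pass the test (edgeR quasi-likelihood F test, adjusted over 18147 genes, called under 0.05). Over all genes tested, 43.8% were called in this comparison, 20.4% as higher and 23.5% as lower. The median log2 fold change of the 10 genes was 2.55, against -0.11 over all genes. In 8 genes the 3 AML libraries all lay above the 3 controls and in 1 all lay below, where 20.4% and 27.5% of all genes did so (47.8% in either direction).

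**Figure D1:**
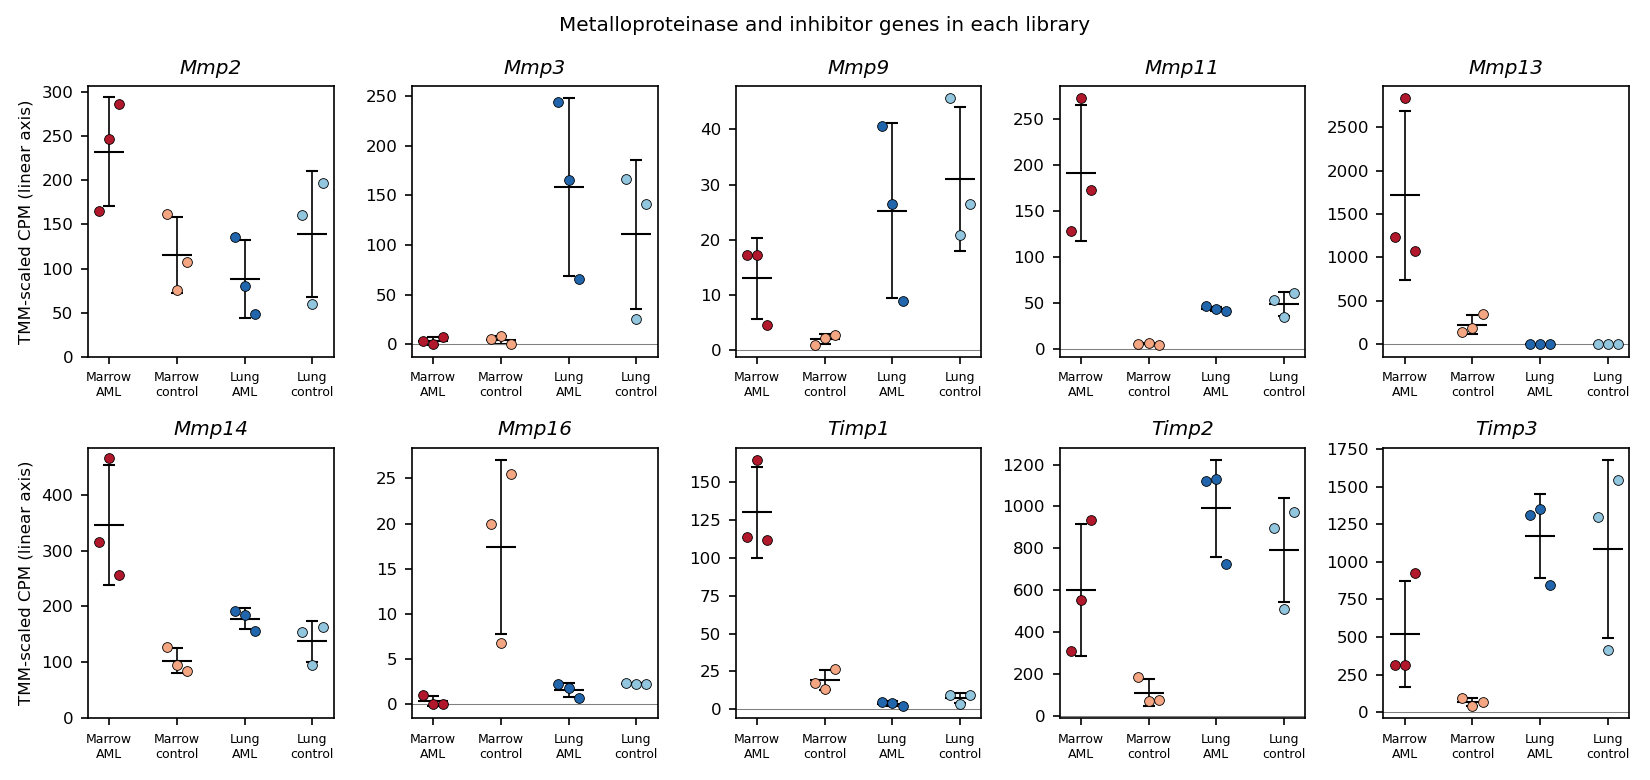
TMM-scaled CPM of the 10 genes in each library on linear axes that differ between panels, with the group mean (long bar) and SD (whiskers) over 3 libraries. Mmp11 stands at 128 to 272 CPM in the marrow AML libraries and at 4.97 to 6.43 CPM in the marrow controls, and Mmp13 is above 9.67 CPM in marrow libraries only.

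Mmp13, collagenase-3, is the main interstitial collagenase of rodents and is made in bone by osteoblasts and hypertrophic chondrocytes. It had 1230, 2830 and 1080 CPM in the marrow AML libraries, against 146, 186 and 348 CPM in the marrow controls. Every AML library was above every control, and the lowest AML value was well clear of the highest control. The fitted difference was 7.54-fold (log2 2.91 ± 0.72 SE, adjusted p = 0.0071, edgeR). In lung the gene was far lower, with 9.67, 1.54 and 1.66 CPM in AML libraries and 1.26, 3.61 and 1.78 CPM in controls. The values of lung AML 2 and 3 lay within the control range and lung AML 1 lay above it.

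Beside the rise of Mmp13, the marrow stromal and osteolineage list had 8 of its 18 genes called higher and 5 lower, and its summed share overlapped between the marrow groups. Chondrocyte genes took 0.0155 to 0.0412% of counts in marrow AML and 0.0399 to 0.0815% in marrow control, with 0 of 6 tested genes higher, 2 lower, and Ihh at 0 in all AML libraries. Osteoclast genes took 0.0247 to 0.0339% in marrow AML and 0.0434 to 0.0604% in marrow control, with Oscar, Dcstamp and Ocstamp at 0 in AML and Calcr, Dcstamp and Ocstamp at 0 in controls. Of 5 tested osteoclast genes 2 were higher and 1 lower (median 0.82), the lower being Acp5 (-2.53 ± 0.34, adjusted p = 0.000204, edgeR), named after its value was seen. Pericyte and smooth muscle genes moved with the AML group: 12 of 14 were higher and none lower, and their share was 0.675, 0.383 and 1.61% in marrow AML, against 0.09, 0.0207 and 0.0442% in marrow control. The fibroblast share was 0.522, 0.509 and 1.4% in marrow AML and 0.346, 0.112 and 0.183% in marrow control. Of the 12 fibroblast genes only 3 were called higher and 1 lower, and 8 were not called. Pan-leukocyte genes took 0.0657 to 0.084% in marrow AML and 0.0139 to 0.0173% in marrow control (7 of 10 higher, 1 lower), and erythroid genes 0.141 to 0.489% in marrow AML and 1.84 to 1.96% in marrow control (12 of 13 lower). Of the 20 pan-endothelial genes 1 was higher and 9 lower. The pericyte and pan-leukocyte lists and the fibroblast share moved in the direction of most of the genes described. The part of all these lists in the results was not tested.

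Mmp13 and Mmp3 lie in the same cluster of 10 metalloproteinase genes on chromosome 9 (7272514 to 7699585, GRCm38), with 162490 bases between them, and showed different patterns. Mmp13 is at 7272514 to 7283331 and Mmp3 at 7445822 to 7455975, both on the plus strand. Their upstream sequences are shown because these neighbours share a promoter motif but not a pattern of expression. Each is the 150 bases before the RefSeq start (GRCm38.p6, plus strand, chr9:7272364-7272513 and chr9:7445672-7445821), with a match to the AP-1 heptamer in capitals.
Mmp13: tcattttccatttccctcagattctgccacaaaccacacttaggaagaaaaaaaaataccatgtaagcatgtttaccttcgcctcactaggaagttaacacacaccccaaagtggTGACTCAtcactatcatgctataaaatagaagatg
Mmp3: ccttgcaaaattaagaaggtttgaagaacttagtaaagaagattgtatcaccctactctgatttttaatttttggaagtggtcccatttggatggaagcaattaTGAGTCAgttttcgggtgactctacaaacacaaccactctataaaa
The heptamer searched was TGANTCA, whose reverse complement has the same form, so both strands are covered. It starts 35 bases before the start in Mmp13 and 46 bases before it in Mmp3. Windows of 250 bases before to 50 after the start were found for 7 of the 10 genes (Mmp2, Mmp9 and Mmp16 had none), and these 2 were the only ones of the 7 with a match. Of all 32851 RefSeq windows, 2565 (7.81%) held it. In the chromosome 9 cluster 8 of 10 genes held it, and 0 of 12 other listed Mmp and Timp genes did. A match is a description of letters, and says nothing of binding.

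Mmp3, stromelysin-1, cuts many matrix proteins and activates other pro-metalloproteinases. In marrow it had 2.91, 0.229 and 7.47 CPM in AML libraries and 5.07, 8.04 and 0.419 CPM in controls. Both groups spanned more than a 10-fold range and overlapped (log2 fold change -0.35 ± 1.07, adjusted p = 0.824, edgeR). In lung it had 244, 165 and 65.5 CPM in AML libraries and 166, 25.2 and 141 CPM in controls. Lung control 2, the library with the low fibroblast share, had the lowest lung value, and the lung groups overlapped.

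Mmp11, stromelysin-3, is unusual among the secreted enzymes in being activated inside the cell by furin-type proteases. It showed the largest rise of the 10 genes. The marrow AML libraries had 128, 272 and 173 CPM, against 5.91, 6.43 and 4.97 CPM in the marrow controls. The controls were tight and every AML library was far above them. The difference was 33-fold (log2 5.05 ± 0.32, adjusted p = 1.06e-05, edgeR). In lung the gene was steady, at 46.4, 43 and 41.5 CPM in AML libraries and 52.9, 35 and 60.3 CPM in controls. Mmp11 (chromosome 10, 75923222 to 75936496, minus strand) shares 155 exon bases with Chchd10 on the other strand, which had 949 to 9140 counts per library, and reads there cannot be assigned to one gene because counting ignored strand.

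Mmp2 (chromosome 8, 92827291 to 92853420, plus strand) and Mmp9 (chromosome 2, 164940780 to 164955850, plus strand) are the gelatinases, which cut type IV collagen of basement membranes. Mmp9, which neutrophils store in granules, had 17.2, 17.3 and 4.61 CPM in marrow AML libraries, against 1.07, 2.26 and 2.82 CPM in marrow controls. The groups did not overlap, although marrow AML 3 was nearer to the controls than to the other AML libraries. The log2 fold change was 2.67 ± 0.66 (adjusted p = 0.00735, edgeR), but limma-voom gave 2.86 with an adjusted p of 0.135. Neutrophil genes took 0.00132 to 0.0189% of counts in marrow AML and 0.00284 to 0.0344% in marrow control, with none of 12 higher and 1 lower. Monocyte and macrophage genes took 0.007 to 0.033% in marrow AML and 0.009 to 0.0442% in marrow control, with 1 of 14 genes higher and none lower. Marco and Ms4a7 were at 0 in AML, and Ms4a7 was at 0 in controls too. For both lists the shares overlapped between the marrow groups, while 7 of 10 pan-leukocyte genes were higher in marrow AML and 1 was lower. The part of these lists in the Mmp9 values was not tested.

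Mmp2 had 165, 247 and 286 CPM in marrow AML libraries and 162, 76.2 and 108 CPM in marrow controls. Every AML library was above every control, the lowest only just. The log2 fold change of 1.01 ± 0.47 did not pass the test (adjusted p = 0.105, edgeR). It passed when libraries were scaled by totals alone (1.31, adjusted p = 0.0465), with a filter of 5 CPM in 3 libraries (1.23, adjusted p = 0.0497) and when only the marrow libraries were fitted (1.15, adjusted p = 0.0357).

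Mmp14 (chromosome 14, 54431612 to 54445364, plus strand) and Mmp16 (chromosome 4, 17852893 to 18119145, plus strand) are membrane-type enzymes, and Mmp14 also activates the Mmp2 precursor at the cell surface. Mmp14 had 316, 465 and 257 CPM in marrow AML libraries, against 128, 94.8 and 85.1 CPM in marrow controls. The lowest AML library was above the highest control, and the difference was log2 1.75 ± 0.27 (adjusted p = 0.000467, edgeR). Mmp16 went the other way, with 0.971, 0 and 0.0698 CPM in marrow AML libraries and 20, 6.73 and 25.5 CPM in marrow controls. The AML values rest on 15, 0 and 2 counts and the control values on 430, 134 and 426, and a count of 0 in marrow AML 2 allows up to 0.115 CPM. Mmp16 was therefore at or near the detection limit in AML marrow, and its log2 fold change was -5.78 ± 1.21 (adjusted p = 0.00276, edgeR). The size depended on single libraries: it was -8.72 without marrow AML 1, -5.16 without marrow AML 2 and -6.84 with limma-voom.

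Timp1 is a secreted inhibitor that blocks the membrane-type enzymes poorly and binds the Mmp9 precursor. It had 114, 165 and 112 CPM in marrow AML libraries, against 17.4, 13.5 and 26.5 CPM in marrow controls. All AML libraries were above all controls (log2 fold change 2.77 ± 0.42, adjusted p = 0.000439, edgeR). Timp1 (chromosome X, 20870166 to 20874735, plus strand) lies within Syn1 of the other strand and shares no exon bases with it.

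Timp2 (chromosome 11, 118301069 to 118355740, minus strand) blocks most metalloproteinases and also holds the Mmp2 precursor on Mmp14 for its activation. It had 309, 554 and 937 CPM in marrow AML libraries and 185, 72.3 and 74.9 CPM in marrow controls. The groups were apart (log2 fold change 2.44 ± 0.48, adjusted p = 0.00191, edgeR), and marrow control 1 was the highest control. Without it the value was 3.03. Timp3 had 315, 315 and 924 CPM in marrow AML libraries and 96.1, 42.4 and 64.4 CPM in marrow controls. Marrow AML 3, which also had the highest pericyte and fibroblast shares, was far above the other AML libraries. The log2 fold change of Timp3 was 2.94 ± 0.57 (adjusted p = 0.00178, edgeR) and 2.22 without that library (adjusted p = 0.00446). Timp3 (chromosome 10, 86300372 to 86349506, plus strand) shares 1733 exon bases with Syn3 of the other strand, which had 0 to 75 counts per library.

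**Figure D2:**
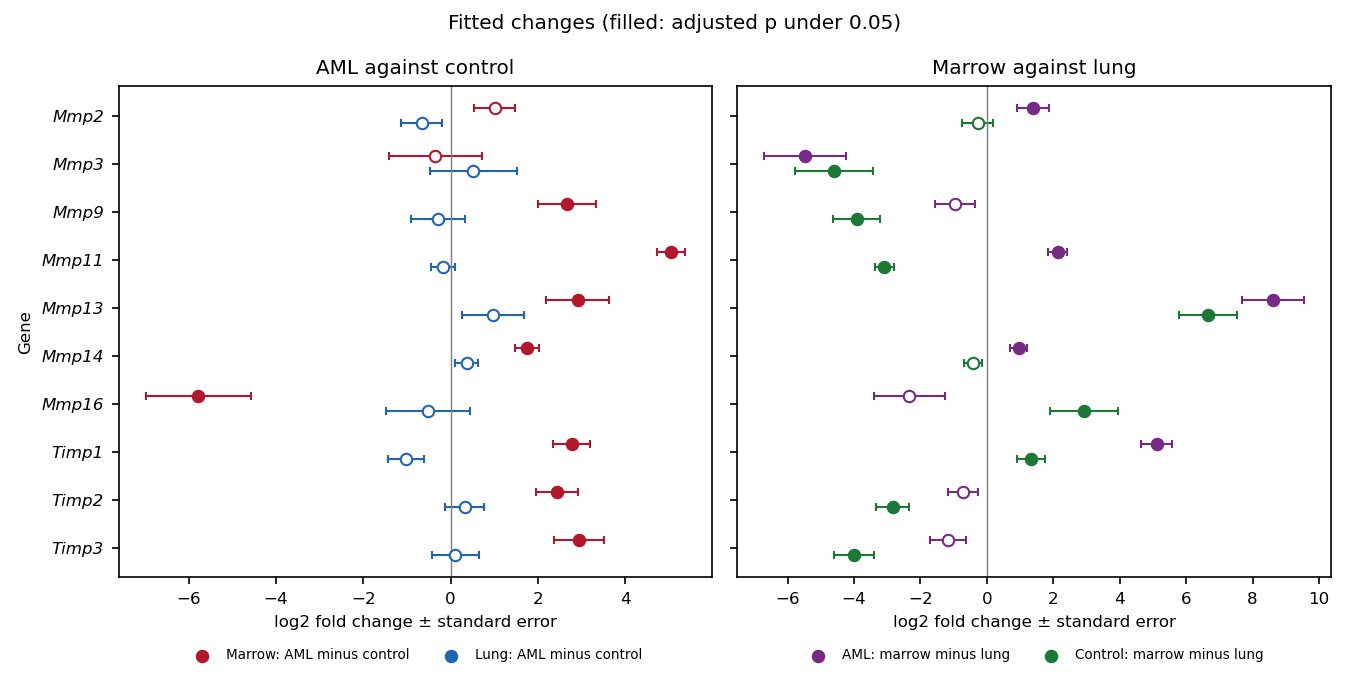
Fitted log2 fold changes with their standard errors (edgeR, 3 libraries a group), AML minus control in marrow and lung on the left and marrow minus lung in AML and control mice on the right, with filled points for an adjusted p under 0.05. In AML minus control, 8 marrow points and no lung point are filled.

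In lung, none of the 10 genes passed the test between AML and control libraries (edgeR). Pan-endothelial genes moved in the same comparison: 10 of 20 were called lower in AML, none higher, and all 20 had AML libraries below controls. The part of this in the lung values was not tested. Over all genes 2.33% were called, 1.17% higher and 1.16% lower. By unadjusted p under 0.05 there was 1 gene, Timp1, and none of the 10 was called in the 21 alternatives, which include DESeq2, limma-voom and the fit without lung control 2. Timp1 had 4.95, 4.11 and 2.12 CPM in lung AML libraries and 9.57, 3.76 and 9.51 CPM in lung controls, which overlap (log2 fold change -1.02 ± 0.41, adjusted p = 0.238, edgeR). Mmp16 was the 1 gene whose lung groups did not overlap, where 35% of all genes did not (18.2% with AML above and 16.8% with AML below). It had 2.21, 1.84 and 0.708 CPM in lung AML libraries, against 2.35, 2.27 and 2.26 CPM in lung controls, with a log2 fold change of -0.52 ± 0.97 (adjusted p = 0.901, edgeR). The inhibitors Timp2 and Timp3 were abundant in both groups. Timp2 had 1120, 1130 and 724 CPM in lung AML libraries and 895, 511 and 972 CPM in lung controls. Timp3 had 1310, 1350 and 846 CPM in lung AML libraries and 1300, 415 and 1540 CPM in lung controls, the lowest being lung control 2. Mmp14 had 192, 185 and 157 CPM in lung AML libraries and 154, 95.2 and 163 CPM in lung controls, and again overlapped. The remaining lung changes lay between -0.66 (Mmp2) and 0.97 (Mmp13) on the log2 scale, the median of the 10 was -0.04, and the median of all genes was 0.

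The AML effect itself was compared between the tissues, as the marrow change minus the lung change. It passed the test in 7 of the 10 genes, with 6 higher in marrow and 1 lower, against 30.7% of all genes (14.6% higher and 16.1% lower). Among the 6 higher in marrow, Mmp11 differed most (log2 5.22 ± 0.41, adjusted p = 5.42e-05, edgeR), followed by Timp1 (3.79 ± 0.59, adjusted p = 0.000963). Timp3 (2.83 ± 0.76, adjusted p = 0.0164), Mmp14 (1.38 ± 0.37, adjusted p = 0.0168), Mmp9 (2.96 ± 0.89, adjusted p = 0.0271), Timp2 (2.12 ± 0.65, adjusted p = 0.0292) and Mmp16 (-5.25 ± 1.49, adjusted p = 0.0206) also passed. Mmp13 did not (1.94 ± 0.99, adjusted p = 0.166), and neither did Mmp2 (1.67, adjusted p = 0.0807) or Mmp3 (-0.86, adjusted p = 0.702).

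Several of these differences sat near the threshold and depended on single libraries. Mmp2 passed with totals alone, DESeq2 or the 5 CPM filter (1.71 to 2.04), without lung control 2 (2.04, adjusted p = 0.0253) and without lung AML 1 (2.12, adjusted p = 0.0452). Mmp13 passed without lung AML 1 (3.39, adjusted p = 0.0122), the 1 lung library with more of its transcript. Mmp16 was lost without marrow control 3 or without lung AML 1 (adjusted p = 0.0511 each), and was -8.2 without marrow AML 1. Mmp9 was lost without marrow control 1 (2.65), marrow control 2 (3.04), marrow AML 2 (2.71), lung control 1 (2.61), lung AML 2 (3.09) or lung AML 3 (2.56), at adjusted p values of 0.05 to 0.0671, and with limma-voom (adjusted p = 0.121). Timp2 was lost without marrow control 2 (1.88), marrow control 3 (1.89), marrow AML 3 (1.64), lung control 1 (2.07), lung control 3 (1.94), lung AML 1 (2.21) or lung AML 3 (1.93), at adjusted p values of 0.0539 to 0.0773, and with no filter (adjusted p = 0.0765), and reached 2.71 without marrow control 1. Timp3 was lost with no filter (2.9, adjusted p = 0.0599) and kept its call at 2.11 without marrow AML 3. Mmp11, Mmp14 and Timp1 passed in all 20 alternatives.

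Without AML cells, 8 of the 10 genes already differed between the tissues, where 64.2% of all genes did. The 8 were 3 genes higher and 5 lower in marrow, against 29.4% and 34.7% of all genes, and in the same 8 the groups did not overlap (3 above and 5 below, against 34.3% and 40.5% of all genes, 74.8% together). Marrow controls were higher than lung controls in Mmp13, at 102-fold (log2 6.67 ± 0.87, adjusted p = 5.6e-05, edgeR), Mmp16 (2.92 ± 1.03, adjusted p = 0.0266) and Timp1 (1.33 ± 0.41, adjusted p = 0.0142). They were lower in Timp3 (-4 ± 0.6, adjusted p = 0.000147), Timp2 (-2.84 ± 0.49, adjusted p = 0.00039), Mmp9 (-3.92 ± 0.7, adjusted p = 0.000495), Mmp11 (-3.09 ± 0.29, adjusted p = 5.84e-06) and Mmp3 (-4.6 ± 1.18, adjusted p = 0.00526). Mmp2 (-0.27) and Mmp14 (-0.42) did not pass. The call of Mmp16 was lost without marrow control 1 (2.79), marrow control 3 (2.54) or any 1 lung control (2.87 to 2.9), with adjusted p values up to 0.0843, and that of Timp1 without marrow control 3 (1.01, adjusted p = 0.0656). Without marrow control 2 Mmp3 was -5.3, and without marrow control 1 Timp2 was -3.45.

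In mice with AML cells, 6 of the 10 genes differed between marrow and lung, against 47.6% of all genes. Of these, 5 were higher and 1 lower in marrow (22.4% and 25.2% of all genes), and in the same 6 the groups did not overlap (5 above and 1 below, against 26.2% and 32.7% of all genes, 59% together). Marrow AML was higher in Mmp13, at 391-fold (log2 8.61 ± 0.94, adjusted p = 4.92e-05, edgeR), Timp1 (5.12 ± 0.47, adjusted p = 2.04e-05), Mmp11 (2.13 ± 0.28, adjusted p = 0.000138), Mmp14 (0.96 ± 0.26, adjusted p = 0.0113) and Mmp2 (1.4 ± 0.48, adjusted p = 0.0308). Mmp3 was lower (-5.47 ± 1.23, adjusted p = 0.00368). Timp2 (-0.72, adjusted p = 0.216), Timp3 (-1.17, adjusted p = 0.0932), Mmp9 (-0.96, adjusted p = 0.222) and Mmp16 (-2.33, adjusted p = 0.0988) did not pass. Each tissue comparison has groups of its own, so Mmp11 was lower in marrow than in lung in control mice and higher in marrow than in lung in AML mice.

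Some of these calls also rested on single libraries. The call of Mmp2 was lost without marrow AML 2 (1.34), marrow AML 3 (1.21), lung AML 2 (1.45) or lung AML 3 (1.09, adjusted p = 0.119), and with limma-voom or no filter. That of Mmp14 was lost without marrow AML 2 (0.67, adjusted p = 0.0511) or lung AML 3 (0.86, adjusted p = 0.0543), and that of Mmp3 with limma-voom (-6.77, adjusted p = 0.102). Without marrow AML 3 Mmp3 was -6.79 and Timp3 passed (-1.9, adjusted p = 0.0116), without marrow AML 1 Mmp16 passed (-5.29, adjusted p = 0.00236), and without lung AML 1 Mmp13 was 10.03.

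The order of the group levels differed from gene to gene. Mmp11 and Mmp14 were highest in marrow AML (means 191 ± 73.3 and 346 ± 108 CPM), with the lung groups next and overlapping, and lowest in marrow control (5.77 ± 0.74 and 103 ± 22.8 CPM), although Mmp14 in marrow control did not pass the test against lung control. Mmp13 and Timp1 ran from marrow AML to marrow control to the lung groups, which did not differ beyond their spread. Timp2 and Timp3 were highest in the lung groups (Timp2 989 ± 229 CPM in lung AML and 792 ± 247 CPM in lung control), next in marrow AML (600 ± 317 CPM) and lowest in marrow control (111 ± 64.4 CPM). For both genes marrow AML and lung AML overlapped and did not differ by the edgeR test, although Timp3 was called lower in marrow AML by limma-voom (-1.56, adjusted p = 0.0475) and DESeq2 (-1.24, adjusted p = 0.0443) and without marrow AML 3 (-1.9). Mmp9 was likewise highest in the lung groups, where lung AML (25.3 ± 15.9 CPM) overlapped both lung control (31 ± 12.9 CPM) and marrow AML (13 ± 7.31 CPM), and lowest in marrow control. Mmp3 was high in both lung groups and low in both marrow groups, with overlap within each tissue. By mean Mmp2 was highest in marrow AML (232 ± 61.6 CPM), with the other groups overlapping. Lung control 3 had 197 CPM of Mmp2, above marrow AML 1 at 165 CPM. For Mmp2 marrow AML did not pass the test against marrow control. Mmp16 alone was highest in marrow control (17.4 ± 9.66 CPM) and lowest in marrow AML (0.347 ± 0.542 CPM; SD, n = 3 each), with the lung groups between and not passing the test against marrow AML in mice with AML cells.

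Levels of different genes were compared per kilobase of merged exon, as CPM per kb. Mmp13 led the 10 genes in both marrow groups (641 CPM per kb in marrow AML and 84.8 in marrow control), while Timp2 led in both lung groups (254 CPM per kb in lung AML and 203 in lung control), followed by Timp3 and Mmp3. Of the summed CPM per kb of the 7 metalloproteinase genes, Mmp13 made up 74.3 ± 6.65% in marrow AML, 57.6 ± 15.1% in marrow control, 0.833 ± 0.605% in lung AML and 0.858 ± 0.985% in lung control. Mmp3 made up 49.5 ± 9.85% in lung AML and 35.8 ± 13.5% in lung control. By group mean the leading metalloproteinase transcript was thus a collagenase in both marrow groups and a stromelysin in both lung groups, although in lung control 2 Mmp3 held 20.7%, less than Mmp2 or Mmp14.

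The ratio of summed CPM per kb of the 3 inhibitor genes to the 7 metalloproteinase genes was 0.401, 0.279 and 0.8 in marrow AML libraries and 0.599, 0.335 and 0.313 in marrow controls. In lung it was 1.89, 2.7 and 3.07 in AML libraries and 2.02, 2.75 and 2.31 in controls. All marrow libraries were below 1 and all lung libraries above it, and AML and control libraries overlapped in both tissues. Both sums were higher in AML marrow, where the metalloproteinase sum averaged 842 CPM per kb against 143 in marrow control, and the inhibitor sum 364 CPM per kb against 58.3 in marrow control. Timp1 held 43 ± 14.5% of the inhibitor sum in marrow AML, 38.7 ± 13.8% in marrow control, 1.02 ± 0.206% in lung AML and 2.45 ± 0.218% in lung control (SD, n = 3 each). These are transcript ratios and carry no measure of enzyme activity.

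**Figure D3:**
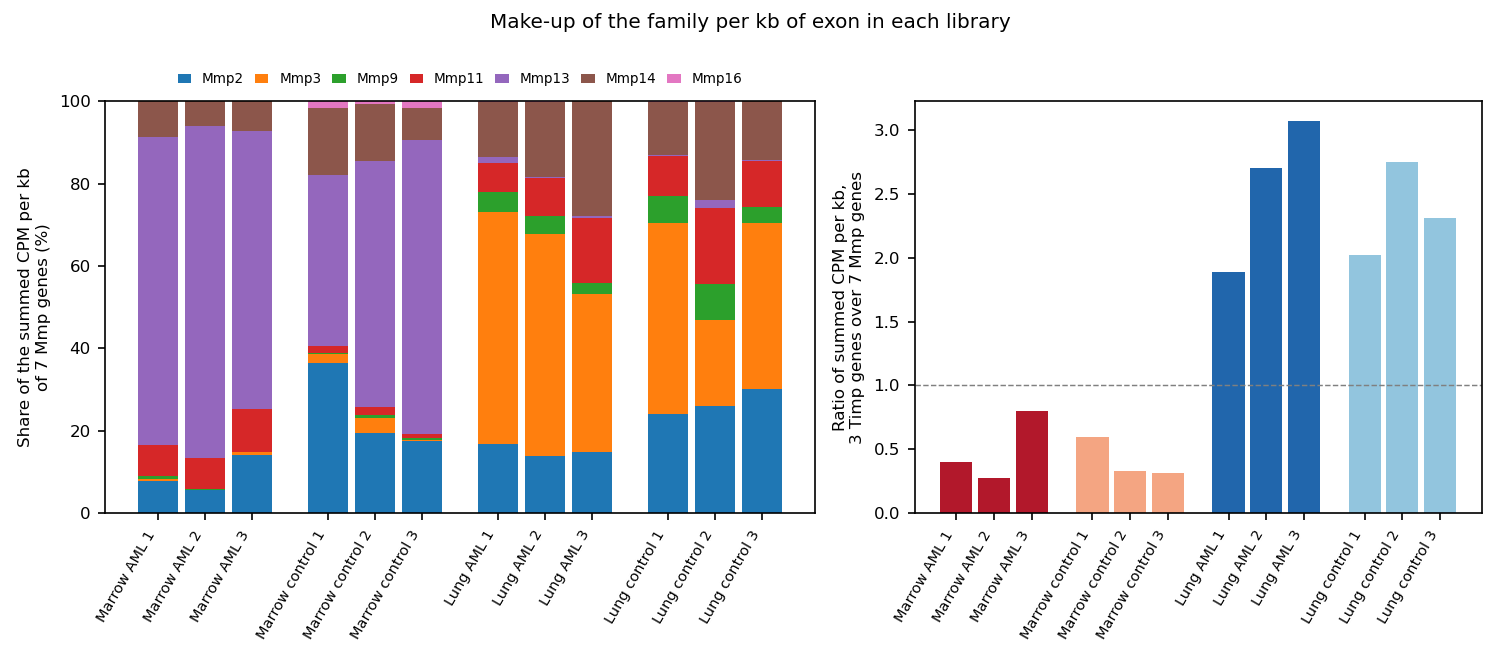
Left, share in percent of each gene in the summed CPM per kb of the 7 metalloproteinase genes, by library; right, ratio of the summed CPM per kb of the 3 inhibitor genes to that of the 7 metalloproteinase genes, with a dashed line at 1. Mmp13 fills most of the marrow AML bars and under 2% of each lung bar, and the ratio is 0.279 to 0.8 in the marrow libraries and 1.89 to 3.07 in the lung libraries.

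Other genes of matrix proteolysis were counted from 6 lists with 82 tested genes. In marrow 41 of the 82 were called higher in AML and 8 lower, against 20.4% and 23.5% of all genes. Of 17 further Mmp and Timp genes, 9 were tested. In marrow 2 of the 9 were higher in AML and none lower, a share close to the 20.4% of all genes called higher, with a median log2 fold change of 1.79 against -0.11 over all genes. Timp4, the fourth inhibitor, had 259, 151 and 605 CPM in marrow AML libraries, against 15.9, 3.42 and 8.39 CPM in marrow controls (log2 fold change 5.19 ± 0.74, adjusted p = 0.000292, edgeR). The membrane-anchored Mmp17 rose by 2.37 ± 0.34 (adjusted p = 0.00032), while Mmp23 (0.96 ± 0.41, adjusted p = 0.0822) and Mmp19 (2.08 ± 0.98, adjusted p = 0.108) did not pass. All 4 inhibitors of the family were thus higher in AML marrow. In lung 0 of the 9 were called (edgeR). Mmp12, the macrophage elastase, and Mmp15, another membrane-type enzyme, were lower in marrow control than in lung control (-7.01 ± 0.97, adjusted p = 0.000178, and -6.56 ± 0.89, adjusted p = 7.36e-05).

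Of 18 ADAM and ADAMTS protease genes, related zinc proteases that shed membrane proteins or cut proteoglycans, 8 were higher in marrow AML than in marrow control and 2 lower (median 1.07). Adamts1 (3.21 ± 0.27, adjusted p = 1.92e-05, edgeR), Adam9 (2.71 ± 0.28, adjusted p = 4.96e-05) and Adamts4 (2.75 ± 0.35, adjusted p = 0.000152), an aggrecanase, rose. Adam10, a sheddase of Notch receptors and other membrane proteins, fell (-1.92 ± 0.25, adjusted p = 0.000198). Of 15 tested genes of plasminogen activation and metalloproteinase control, 8 were higher and 2 lower (median 1.41). Serpine2, a secreted serine protease inhibitor, rose by 2.43 ± 0.38 (adjusted p = 0.000491). Bsg, an inducer of metalloproteinases, fell by 0.91 (adjusted p = 0.000945), and Cd44, which docks Mmp9 and Mmp14 at the cell surface, fell by 1.1 (adjusted p = 0.00281).

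Among 16 substrate genes, 7 were higher and 3 lower in AML marrow (median 1.2). The basement membrane collagens Col4a1 (2.34 ± 0.35, adjusted p = 0.000408, edgeR) and Col4a2 (2.32 ± 0.34, adjusted p = 0.000347), substrates of the gelatinases, rose, as did Col6a1 (1.66 ± 0.35, adjusted p = 0.00306). Col1a1, a chain of the fibrillar collagen that Mmp13 cuts, had 1010, 439 and 190 CPM in marrow AML libraries, against 7720, 6360 and 6310 CPM in marrow controls (-3.64 ± 0.57, adjusted p = 0.000531). Every AML library was below every control, so the collagenase gene and this substrate gene moved in opposite directions.

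AP-1 and NF-kappaB subunits include the factors known to act on metalloproteinase promoters. Of 12, 9 were higher in marrow AML and none lower (median 1.51). Among them were the AP-1 subunits Fos (2.77 ± 0.28, adjusted p = 4.47e-05, edgeR), Fosb (1.9 ± 0.2, adjusted p = 5.11e-05), Jun (1.88 ± 0.22, adjusted p = 0.000104) and Junb (2.15 ± 0.31, adjusted p = 0.000324). The NF-kappaB subunits, named after their values were seen, moved less evenly. Mean CPM in marrow AML against marrow control was 31.1 against 35.2 for Nfkb1, 1.46 against 1.52 for Rel and 133 against 110 for Rela. It was 44.4 against 20.3 for Nfkb2 and 16.3 against 8.33 for Relb. Of 12 cytokines and growth factors that induce these genes, 7 were higher and 1 lower (median 1.63). Tgfb1, named after its value was seen, averaged 17.7 CPM in marrow AML against 46.8 CPM in marrow control. Tnf and Il1a were at 0 in all marrow AML libraries, and had only 6 and 2 counts in total in marrow controls. Il6 had 18, 32.2 and 33.4 CPM in marrow AML libraries, against 0.838, 0.251 and 0.0599 CPM in marrow controls (6.13 ± 0.75, adjusted p = 0.000122). Lif (3.83 ± 0.58, adjusted p = 0.000406), Pdgfa (2.69 ± 0.45, adjusted p = 0.000749) and Tgfb3 (2.42 ± 0.43, adjusted p = 0.000996) were higher too.

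In lung, 3 of the 82 tested genes on these 6 lists (3.66%) passed the test between AML and control (edgeR), a share close to the 2.33% of all genes: Adamts15 was higher (2.66 ± 0.41, adjusted p = 0.0112), and Col3a1 (-2.61 ± 0.56, adjusted p = 0.0376) and Csf1 (-1.32 ± 0.3, adjusted p = 0.0476) were lower. The AML effect was tested between the tissues here too. It was larger in marrow for Timp4 (6.24 ± 0.95, adjusted p = 0.000889), Il6 (5.46 ± 0.92, adjusted p = 0.00146), Adamts1 (2.68 ± 0.35, adjusted p = 0.000415), Col4a2 (2.7 ± 0.46, adjusted p = 0.00171) and Fos (2.17 ± 0.38, adjusted p = 0.00182).

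**Figure D4:**
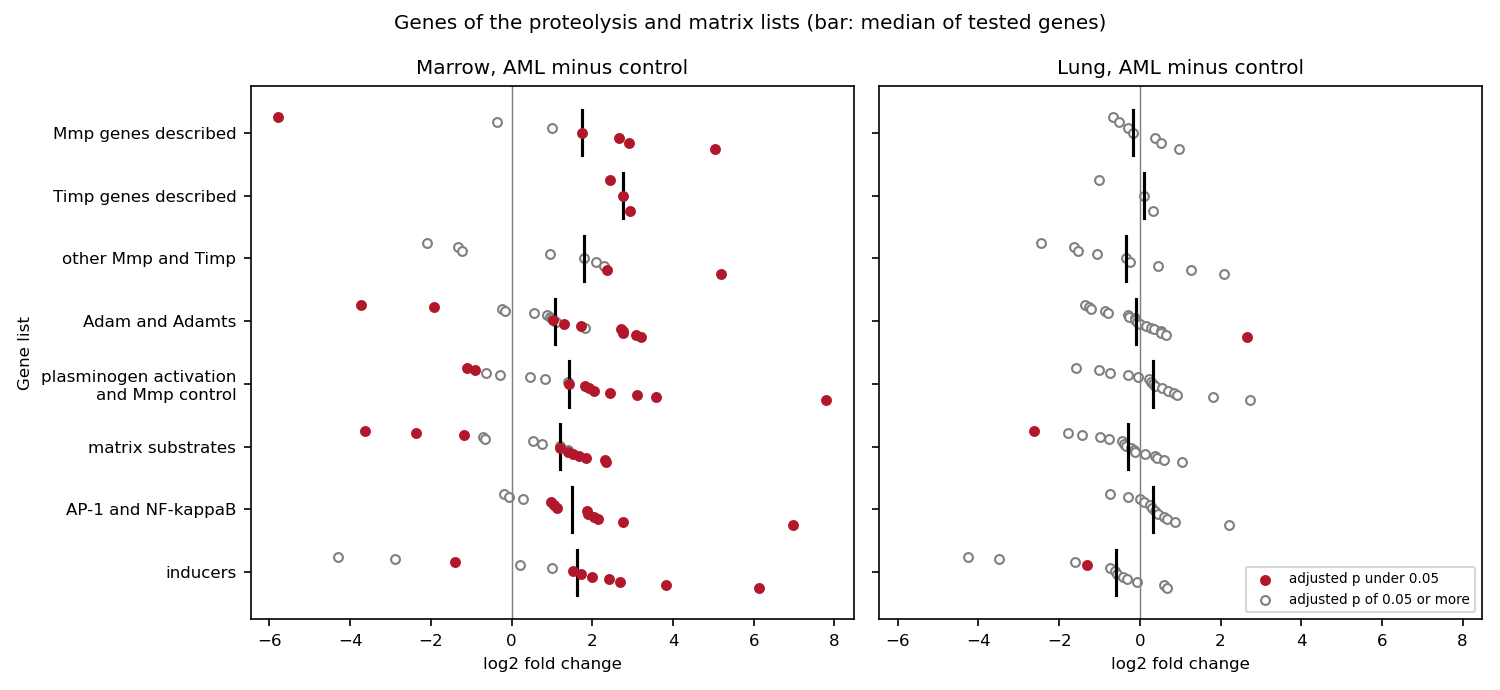
Log2 fold changes, AML minus control, of each tested gene by list in marrow (left) and lung (right), with filled points for an adjusted p under 0.05 (edgeR) and a bar at the list's median. The marrow medians lie between 1.07 and 2.77 and the lung medians between -0.59 and 0.34.

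For each gene, the genes with the most similar pattern were taken by Pearson r of log2 CPM over the 12 libraries, among 12467 genes compared. The libraries form 4 groups, so r mainly reflects the group levels, and it is given as a description. Dok2 (0.992) and Mgp (0.984) were most like Mmp11, and Tbpl1 (0.985) and Clns1a (0.984) most like Mmp13. Angpt4 (0.982) and Foxc2 (0.98) were most like Timp1, Il11ra1 (0.983) and Lamb2 (0.982) most like Timp2, and Cnn2 (0.987) and Rasl11b (0.985) most like Timp3. Mmp14 was nearest to Slc22a3 (0.973) and Adm (0.965), Mmp3 to Uvrag (0.963) and Egln2 (0.959), and Mmp16 to Shc4 (0.961) and Mtf1 (0.951). The gelatinases had the lowest values, with Btbd9 (0.947) and Stam2 (0.941) for Mmp9 and Islr (0.928) and Cpxm2 (0.923) for Mmp2.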

How the data were processed

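RNA was measured in 12 mouse libraries (4 groups of 3) made with kits for very low input, per the labels' protocols. Reads were processed with bcl2fastq and STAR on mm10, per the submitters' processing notes, while the sources used here name no counter, annotation or version. The deposited files hold the authors' raw counts per gene symbol with no normalization, counted without strand per the file names. Totals were 12.8 to 39.2 M counts.

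The main tests were run with edgeR 4.0.16 (R 4.3.3), and alternatives with DESeq2 1.42.0 and limma 3.58.1. All libraries entered 1 model of 4 groups (robust quasi-likelihood F test, 8 residual degrees of freedom) after an expression filter by group (minimum count 10, total 15) and TMM scaling (factors 0.865 to 1.25), with Benjamini-Hochberg adjustment over 18147 genes and a threshold of 0.05. Errors of log2 fold changes are approximate standard errors, the absolute log2 fold change over the square root of its F statistic. The log2 of single libraries used a prior count of 2. Positions and exon lengths came from GENCODE M21 (GRCm38), which held 53292 of the 55291 symbols (96.4%), and promoters from RefSeq (GRCm38.p6). The statistics were tested on simulated data. Figures used matplotlib 3.10.9.

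Named beside the 10 genes are up to 4 tested genes with the smallest p of each list per comparison, and the 2 genes most similar to each member (mean of at least 5 CPM in a group). One of the list genes that meet this rule was left out of the text for a reason unrelated to its value. The genes and lists were chosen with earlier results of these data known. Alternatives were other scalings, tests, filters and dispersion, only the groups compared, the replicate number as a block, and 12 fits with 1 library left out.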

Additional observations from a re-analysis of the deposited data

Results flagged for a closer look

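For 7 of the 10 genes the AML effect in marrow differed from the AML effect in lung. The test was of the difference itself (interaction term, edgeR, adjusted p under 0.05). It called 30.7% of all genes, 14.6% as higher and 16.1% as lower. Mmp9 kept its call in 13 of 20 alternatives and Timp2 in 12 of 20. As the marrow change minus the lung change on the log2 scale, the difference was 5.22 for Mmp11, 3.79 for Timp1, 2.96 for Mmp9, 2.83 for Timp3, 2.12 for Timp2, 1.38 for Mmp14 and -5.25 for Mmp16. The difference for Mmp11 and Timp1 came with marrow rises of 5.05 and 2.77 and lung values of -0.18 and -1.02, which did not pass the test on their own. Cell type lists moved in the same difference: 12 of 14 pericyte and smooth muscle genes, 5 of 10 pan-leukocyte genes and 6 of 20 pan-endothelial genes were higher and none lower, 6 of 18 stromal and osteolineage genes were higher and 1 lower, and 12 of 13 erythroid genes were lower. The median log2 fold change of the pan-endothelial list was -1.75 in marrow and -3.17 in lung, so its fall was the smaller in marrow. In the difference, 3 of 5 osteoclast genes were higher and 1 lower, and 4 of 12 neutrophil and 2 of 6 chondrocyte genes were lower. The part of these cell type lists in the results was not tested.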

How the results depend on the processing

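The 10 genes were recomputed under 21 alternatives (20 for the difference of the AML effects), and in marrow AML against control 7 stayed called higher and 1 lower when any 1 library was left out. The count over all genes in lung AML against control was less stable: 423 with edgeR, 1632 with the DESeq2 Wald test, 2282 with limma-voom, 1239 with only the lung libraries and 72 to 761 with 1 library left out. Leaving out 1 library gave 4 to 7 genes higher and 0 to 1 lower for the difference of the AML effects, 1 to 3 higher for marrow control against lung control, and 3 to 5 higher and 1 to 2 lower for marrow AML against lung AML, where DESeq2 gave 3 lower (Mmp3, Mmp16 and Timp3). The cause was not tested. Signs changed in 5 log2 fold changes, none called, with 1 library left out: Mmp3 in marrow AML ranged from -1.66 to 0.34 (0.34 without marrow control 2, 0.22 without marrow AML 2), Mmp9 in lung AML from -0.81 to 0.11 (0.08 without lung control 1, 0.11 without lung AML 3), Mmp13 in lung AML from -0.47 (without lung AML 1) to 1.51, Timp3 in lung AML from -0.28 (without lung control 2) to 0.45, and Mmp2 in marrow control against lung control from -0.65 to 0.05 (without lung control 3). Scaling by library totals alone put the median of all genes in marrow AML at 0.16, against -0.11 with TMM, and the share of calls that were higher at 61.2%, against 46.4% (lung 40% against 50.1%, difference of effects 66.6% against 47.5%, marrow AML against lung AML 63% against 47%). The share in marrow AML also moved under TMM. It was 57% with the filter of 5 CPM in 3 libraries, 55.5% without lung AML 2 and 53.5% with only the marrow libraries. The labels state no pairing by replicate number. Over 18 pairs of libraries with the same number the correlation of deviations from the group means was -0.16 to 0.18, with 3 over 0.1. With 3 libraries a group, such correlations cannot settle whether libraries of the same number share a mouse. A replicate block gave 7253 genes called in marrow AML and 331 in lung AML, and moved no count of the 10 genes. Mmp16 was at or near the detection limit in marrow AML. Among the marrow AML libraries, its count was highest in the library with the lowest total. The part of depth in these counts was not tested.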
